A study of Mus musculus with 16 samples.

Results

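Whole mouse embryos at embryonic day 9.5 (E9.5) that lacked the histone acetyltransferase KAT6A were compared with wild-type embryos. Of the 16 embryos sequenced, 4 were Kat6a-/-Kat6b+/+ and 4 were Kat6a+/+Kat6b+/+ by the genotype labels, and these 8 are the embryos described here, written as Kat6a-/- and wild-type embryos. Neither group carried the Kat6b transgene that marks the other 8 embryos, and all mice were kept on a mixed FVB x BALB/c background. The Kat6a null allele is a germline deletion of internal exons, so that every tissue of a Kat6a-/- embryo lacked the intact gene, from the start of development. The wild-type embryos came from litters 801 (male), 803 (male), 2597 (female) and 2598 (female), and the Kat6a-/- embryos from litter 801 (2 females) and litter 803 (2 males). Values of single embryos are given in this order. In litter 801 the genotypes therefore also differed in sex, and within the wild-type embryos sex cannot be told apart from the pair of litters.

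KAT6A (MOZ) belongs to the MYST family of histone acetyltransferases and acts in a complex with BRPF, ING5 and MEAF6 proteins that acetylates histone H3. It is best known in the embryo for keeping developmental regulators such as Hox genes active in the right place, and for its need in blood stem cells. E9.5 is the stage at which the pharyngeal arches, limb buds, neural tube, otic vesicles and early kidney field form, and the first macrophages enter the embryo from the yolk sac.

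Counts on genes summed to between 14407277 and 23224367 in wild-type and between 16943010 and 38601376 in Kat6a-/- embryos, and the sex labels of the 8 embryos matched their counts of Xist and of 4 Y-linked genes. Levels are given as CPM (counts scaled by the TMM-normalised library size), which compare embryos for 1 gene and not genes with each other. Counts over the whole Kat6a gene do not check the genotype where a deletion takes away internal exons only. Kat6a was at 211, 176, 211 and 199 CPM in wild-type vs. 190.0, 189, 213 and 218 CPM in Kat6a-/- embryos. Kat6b, which encodes the close paralog, was at 47.1, 42.6, 46.9 and 48.2 CPM in wild-type vs. 48.6, 46.5, 51 and 50.4 CPM in Kat6a-/- embryos. Neither differed past the threshold (log2 fold change 0.032 ± 0.078 SE, FDR = 0.89 for Kat6a and log2 fold change 0.091 ± 0.075 SE, FDR = 0.611 for Kat6b). The long RNA Gm26917 took between 0.206% and 0.512% of the counts in wild-type embryos, 1.16% and 1.09% in the Kat6a-/- embryos of litter 801 and 0.488% and 0.529% in those of litter 803. Its part in the results was not tested.

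Of 26411 genes in the files, 15679 had enough counts for a test. The test was edgeR's quasi-likelihood test, fitted over all 16 embryos with 2 surrogate variables, which stand for variation that the genotype does not explain. In Kat6a-/- vs. wild-type embryos, 147 genes were downregulated and 148 upregulated (false discovery rate, FDR, under 0.05), which is 0.938% and 0.944% of the genes tested, or 1.88% together. Of the downregulated genes, 18 were Hox, Dlx or Tbx genes or their antisense and host transcripts (11, 5 and 2), which leaves 129, and no gene of these families was upregulated. The changes were small. The median log2 fold change was -0.34 for downregulated and 0.40 for upregulated genes, and it was under 1.5-fold for 104 and 100 of them. More than 2-fold changes were found for 10 downregulated and 30 upregulated genes. The downregulated genes had a median of 29.3 CPM in wild-type embryos and the upregulated genes of 12 CPM. The 8 values did not overlap between genotypes for 115 of the 147 and 115 of the 148 genes, whereas they did not overlap for 7.97% of all genes tested. In RNA of whole embryos, fewer cells of a type and less RNA per cell cannot be told apart, which holds for every gene below. The embryos are separate animals that share litters. The p-values measure the spread between them that is left after the 2 surrogate variables, with no term for litter. In these 8 embryos the first surrogate variable separated males (-0.28 to -0.22) from females (0.18 to 0.29). The second ran from -0.48 in the wild-type embryo of litter 803 to 0.37 in that of litter 2598. With the first only, 100 genes were called. The number of calls depends on the surrogate variables: without them 57 genes were downregulated and 38 upregulated, and the sum of both was 137 to 178 when any embryo other than the wild-type embryo of litter 801 was left out (357 without that embryo). Of the 112 called genes named below, 44 were called whichever embryo was left out, 61 in some of these fits and 7 in none (Foxd3, Foxe1, Foxl1, Nectin4, Pax2, Sall1 and Sema3b).

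The downregulated genes held many transcription factors of development beyond the Hox, Dlx and Tbx families. Across the lists of homeobox, forkhead, POU, Pax, Sox, basic helix-loop-helix, GATA and related factors and of axial elongation genes, 23 of 298 tested genes were downregulated (7.72%, against 0.938% of all genes tested) and none was upregulated, while 214 of the 298 log2 fold changes were negative (7644 of 15679 among all genes). The axial elongation list also holds genes that are not transcription factors, so not all of the 298 are factors. The median log2 fold change of the 298 was -0.09, against 0.0033 for all genes tested. The count was 7 without surrogate variables, 8 without the wild-type embryo of litter 803, 21 without that of litter 801 and 11 or 12 without any of the other 6 embryos. With litter as a block it was 0 or 3 over 12 embryos and 4 over the 6 embryos of litters 801 and 803. Not all of these belonged to the 23. At most 2 genes of these lists were called higher in any alternative fit. The plot of gene lists sets these families beside the other lists.

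**Figure D1:**
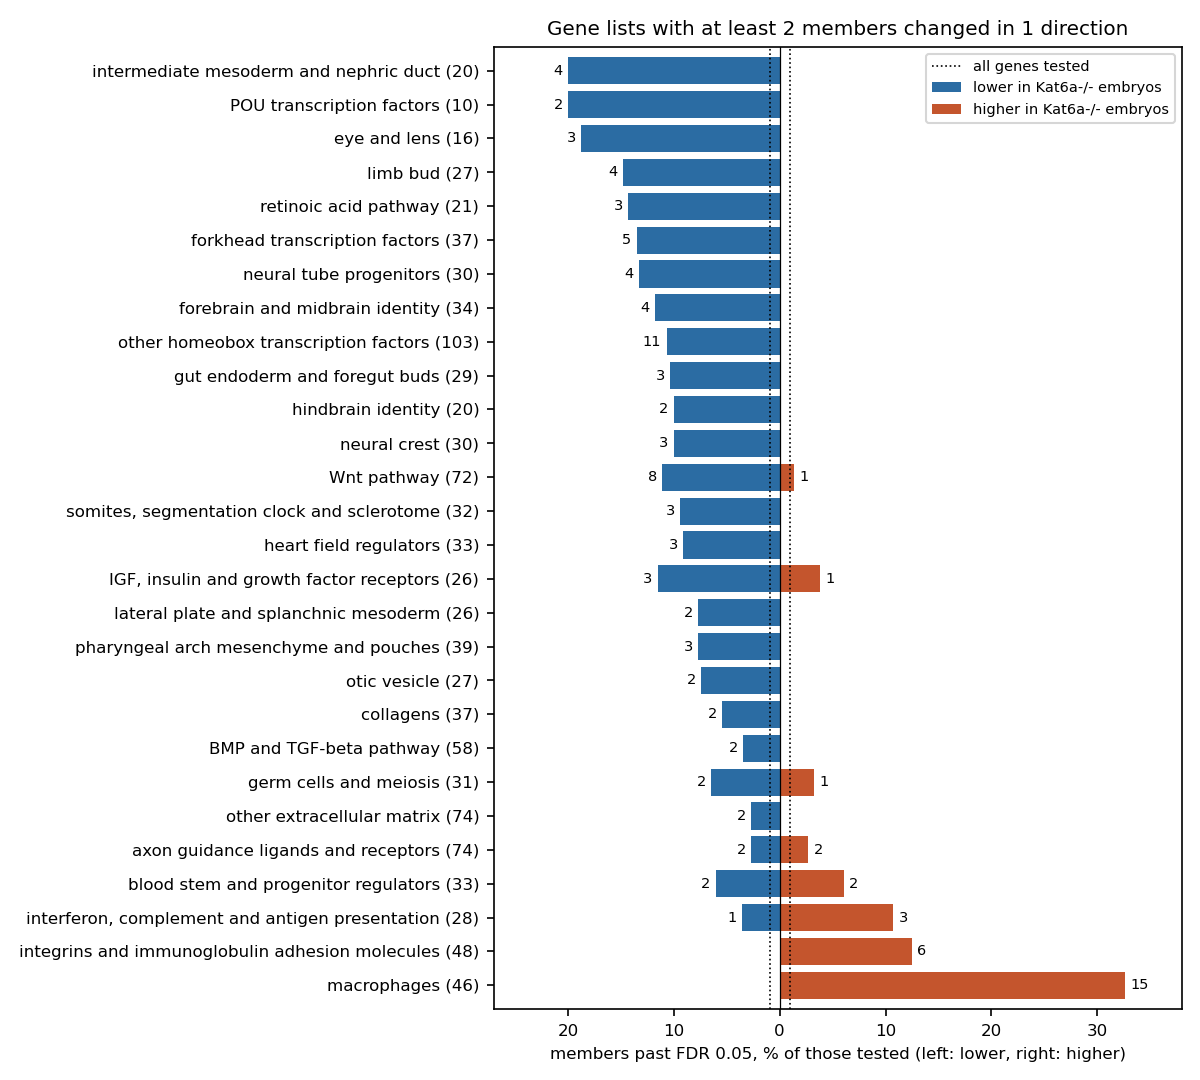
Share of the tested members of each gene list past FDR 0.05 in Kat6a-/- vs. wild-type embryos (x axis, %; left, lower; right, higher), for lists with at least 2 members changed in 1 direction. The number tested stands in parentheses, the number changed at the bar, and the dotted lines mark the shares over all genes tested (0.938% and 0.944%); on the right the longest bar is that of macrophages with 15 of 46 members, and on the left the bars of intermediate mesoderm (4 of 20) and POU factors (2 of 10) are longest.

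Homeobox genes outside Hox and Dlx, with Meis, Pbx, POU, Pax and Cdx genes in lists of their own, formed the longest of these lists. Of its 103 tested members 11 were downregulated (10.7%, against 0.938% of all genes tested), none was upregulated, and the median log2 fold change was -0.16. The 11 became 6 without surrogate variables, 6 without the first Kat6a-/- embryo of litter 801 or the second of litter 803, 4 without the wild-type embryo of litter 803, 7 without that of litter 2598, and 0 to 2 with litter as a block. Six2, which keeps nephron progenitors and is expressed in the arch and facial mesenchyme, was at 23.98, 19.11, 26.03 and 23.9 CPM in wild-type vs. 13.3, 13.1, 15.7 and 14.96 CPM in Kat6a-/- embryos (log2 fold change -0.70 ± 0.099 SE, FDR = 0.00066). Barx1, a regulator of the stomach mesenchyme, teeth and first arch, was at 21.3, 22.98, 26.1 and 29.04 CPM in wild-type vs. 12.3, 10.8, 11.5 and 13.9 CPM in Kat6a-/- embryos (log2 fold change -1.01 ± 0.18 SE, FDR = 0.0144). For both genes every Kat6a-/- embryo lay below every wild-type embryo, and the fitted level of Barx1 was 0.495 times that of the wild type. Their promoters are printed here as examples rich in CG dinucleotides, and 2 examples with few CG, of upregulated genes, are printed further on. Each is the 300 bases from 250 before to 50 after the start of the canonical transcript, 5′ to 3′ on the strand of the gene, with every CG in capitals (GRCm39; Six2 chr17:85995654-85995953, minus strand, 35 CG; Barx1 chr13:48816134-48816433, plus strand, 29 CG).
Six2: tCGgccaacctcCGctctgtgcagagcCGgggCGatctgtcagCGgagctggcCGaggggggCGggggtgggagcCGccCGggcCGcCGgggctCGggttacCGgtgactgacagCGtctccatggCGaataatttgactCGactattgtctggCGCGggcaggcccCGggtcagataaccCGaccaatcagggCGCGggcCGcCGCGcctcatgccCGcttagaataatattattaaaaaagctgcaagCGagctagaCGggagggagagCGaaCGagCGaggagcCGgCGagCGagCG
Barx1: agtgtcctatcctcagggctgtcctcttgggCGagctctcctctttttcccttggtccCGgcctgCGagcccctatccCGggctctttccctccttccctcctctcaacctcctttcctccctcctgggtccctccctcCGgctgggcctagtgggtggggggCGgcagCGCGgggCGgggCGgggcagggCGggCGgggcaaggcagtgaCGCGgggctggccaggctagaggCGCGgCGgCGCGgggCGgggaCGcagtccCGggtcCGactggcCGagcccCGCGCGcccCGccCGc

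Lhx2, a LIM homeobox gene needed for eye, forebrain and limb, was at 52.8, 49.8, 49.5 and 55.3 CPM in wild-type vs. 41.2, 36.8, 45.03 and 41.5 CPM in Kat6a-/- embryos (log2 fold change -0.34 ± 0.052 SE, FDR = 0.00123). Lhx1, needed for the head organizer and the kidney, was at 4.53, 3.70, 5.31 and 4.94 CPM in wild-type vs. 2.21, 2.95, 2.72 and 3.61 CPM in Kat6a-/- embryos (log2 fold change -0.63 ± 0.13 SE, FDR = 0.0121). Six3, a gene of the anterior forebrain and eye field, was at 14.97, 15.2, 16.7 and 15.5 CPM in wild-type vs. 12.6, 12.4, 12.2 and 12.3 CPM in Kat6a-/- embryos (log2 fold change -0.34 ± 0.077 SE, FDR = 0.0269). These also did not overlap between the genotypes. Gsx1, a factor of neural progenitors, lay lower and did overlap, with 1.18, 0.884, 1.70 and 1.30 CPM in wild-type vs. 0.221, 0.573, 0.886 and 0.761 CPM in Kat6a-/- embryos (log2 fold change -1.002 ± 0.25 SE, FDR = 0.0405).

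Of 6 Iroquois genes tested, which pattern the neural tube, heart and limb, 3 were downregulated, against 0.938% of all genes tested. This group was formed after its values were seen, so that its count is a description only. Each of the 3 was called in some of the fits without 1 embryo and not in others. Irx2 was at 24.3, 28.7, 25.3 and 28.4 CPM in wild-type vs. 18.3, 20.2, 21.6 and 20.3 CPM in Kat6a-/- embryos (log2 fold change -0.40 ± 0.082 SE, FDR = 0.0116). Irx5, which lies on chromosome 8 but 69.7 Mb from Kat6a, was at 34.3, 35.7, 36.9 and 37.96 CPM in wild-type vs. 28.8, 31.2, 31.8 and 27.98 CPM in Kat6a-/- embryos (log2 fold change -0.27 ± 0.056 SE, FDR = 0.0121). Irx1 was at 29.4, 29.9, 24.8 and 28.01 CPM in wild-type vs. 26.8, 22.5, 18.02 and 22.1 CPM in Kat6a-/- embryos (log2 fold change -0.33 ± 0.078 SE, FDR = 0.0292), where the Kat6a-/- embryo with the highest value reached the range of the wild type. Uncx, which marks the caudal part of each somite, was at 22.1, 22.4, 18.04 and 19.6 CPM in wild-type vs. 14.1, 16.9, 17.4 and 16.1 CPM in Kat6a-/- embryos (log2 fold change -0.34 ± 0.071 SE, FDR = 0.0136), and Nkx2-6, a gene of the pharyngeal endoderm and heart, was at 3.96, 5.14, 3.57 and 3.30 CPM in wild-type vs. 2.88, 2.37, 2.48 and 2.48 CPM in Kat6a-/- embryos (log2 fold change -0.66 ± 0.13 SE, FDR = 0.0101). Neither overlapped. Prrx1, the member of the homeobox list above with the highest CPM, was at 136, 108, 164 and 147 CPM in wild-type vs. 113, 117, 141 and 118 CPM in Kat6a-/- embryos and did not pass the threshold (log2 fold change -0.16 ± 0.046 SE, FDR = 0.0723).

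Of 37 forkhead genes tested, 5 were downregulated (13.5%, against 0.938% of all genes tested) and none upregulated. When any 1 embryo was left out 0 to 2 were called, and none was called without surrogate variables, with sex in their place or with litter as a block. Foxc2, a factor of somites, arches and heart outflow, was at 44.8, 50.6, 45.99 and 44.2 CPM in wild-type vs. 42.4, 38.9, 34.9 and 37.96 CPM in Kat6a-/- embryos (log2 fold change -0.28 ± 0.054 SE, FDR = 0.0085). Foxd3, which marks premigratory neural crest, was at 7.97, 7.29, 8.44 and 8.44 CPM in wild-type vs. 6.31, 6.39, 5.2 and 5.38 CPM in Kat6a-/- embryos (log2 fold change -0.46 ± 0.11 SE, FDR = 0.0392). Foxe1, a gene of the thyroid bud and palate, was at 5.44, 5.14, 4.91 and 4.32 CPM in wild-type vs. 3.76, 3.65, 2.01 and 3.47 CPM in Kat6a-/- embryos (log2 fold change -0.61 ± 0.16 SE, FDR = 0.0476). None of these overlapped between the groups. Foxl2, which in the embryo marks the arches and eyelid mesenchyme, was at 8.58, 9.28, 7.19 and 8.17 CPM in wild-type vs. 6.80, 6.41, 5.50 and 5.38 CPM in Kat6a-/- embryos (log2 fold change -0.48 ± 0.11 SE, FDR = 0.0272), and Foxl1, a gene of the gut mesenchyme, was at 5.398, 5.63, 5.72 and 5.08 CPM in wild-type vs. 4.43, 3.70, 3.60 and 4.42 CPM in Kat6a-/- embryos (log2 fold change -0.44 ± 0.11 SE, FDR = 0.0497). These 2 genes did not overlap either. The member with the highest CPM, Foxp4, was at 296, 309.9, 310.4 and 309.9 CPM in wild-type vs. 286, 297, 302 and 289.7 CPM in Kat6a-/- embryos and did not pass the threshold (log2 fold change -0.058 ± 0.035 SE, FDR = 0.448).

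Of 10 POU genes tested, 2 were downregulated (against 0.938% of all genes tested), both neural factors of class III. Pou3f3 was at 82.7, 72.5, 89.2 and 92.6 CPM in wild-type vs. 53.7, 57, 66.1 and 62.99 CPM in Kat6a-/- embryos (log2 fold change -0.47 ± 0.044 SE, FDR = 1.62e-06). Its wild-type embryos of litters 2597 and 2598 lay above those of litters 801 and 803, and all 4 Kat6a-/- embryos lay below all wild-type embryos. Pou3f2 was at 85.7, 78.2, 89.03 and 93.6 CPM in wild-type vs. 69.04, 71.8, 73.04 and 78.3 CPM in Kat6a-/- embryos (log2 fold change -0.23 ± 0.048 SE, FDR = 0.0136), where the highest Kat6a-/- and lowest wild-type values were nearly equal. Pax2, which specifies kidney, optic stalk and otic vesicle, was at 9.36, 9.39, 10.1 and 9.68 CPM in wild-type vs. 7.91, 7.74, 6.38 and 6.99 CPM in Kat6a-/- embryos (log2 fold change -0.40 ± 0.10 SE, FDR = 0.044), the only member downregulated among 8 Pax genes tested. Pax2 was not called when any 1 embryo was left out, and neither POU gene was called without surrogate variables. Pknox1, a TALE homeobox cofactor, was at 33.6, 35.5, 39.3 and 34.05 CPM in wild-type vs. 27, 28.5, 29.4 and 30.1 CPM in Kat6a-/- embryos (log2 fold change -0.30 ± 0.062 SE, FDR = 0.0108). Neither of these overlapped. Exons of the opposite strand cover 71.3% of the exon bases of Nkx2-6, 37.9% of Lhx1, 11.3% of Pou3f2, 10.97% of Foxd3 and 10.3% of Id4. The library kit keeps no strand, so that their reads and those of the antisense transcripts cannot be told apart there.

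A further 3 factors passed the threshold with less even values. Id4, an inhibitor of basic helix-loop-helix factors, was at 25.8, 24.1, 33.3 and 38.2 CPM in wild-type vs. 17.7, 20.8, 25.5 and 25.8 CPM in Kat6a-/- embryos (log2 fold change -0.39 ± 0.087 SE, FDR = 0.0244), and the Kat6a-/- embryos of litter 803 lay above their wild-type littermate. Cdx2, a factor of the caudal embryo, was at 7.44, 14.1, 7.32 and 5.35 CPM in wild-type vs. 9.68, 7.12, 4.02 and 5.52 CPM in Kat6a-/- embryos (log2 fold change -0.42 ± 0.11 SE, FDR = 0.0433), and Nr6a1, which acts during trunk elongation, at 111, 146, 95.3 and 95.9 CPM in wild-type vs. 128, 105, 76.3 and 94.8 CPM in Kat6a-/- embryos (log2 fold change -0.18 ± 0.044 SE, FDR = 0.0392). For Cdx2 and Nr6a1 the groups overlapped and the wild-type embryo of litter 803 held the highest value. The same embryo had the lowest summed level of the early neuron list, 1357 CPM, against 1781 to 1782 CPM in the other wild-type embryos and 1505 to 1920.0 CPM in Kat6a-/- embryos. Without this embryo neither gene passed the threshold (log2 fold change -0.27, FDR = 0.40 for Cdx2 and -0.12, FDR = 0.52 for Nr6a1, edgeR). No member of the Sox list (16 tested) passed the threshold.

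**Figure D2:**
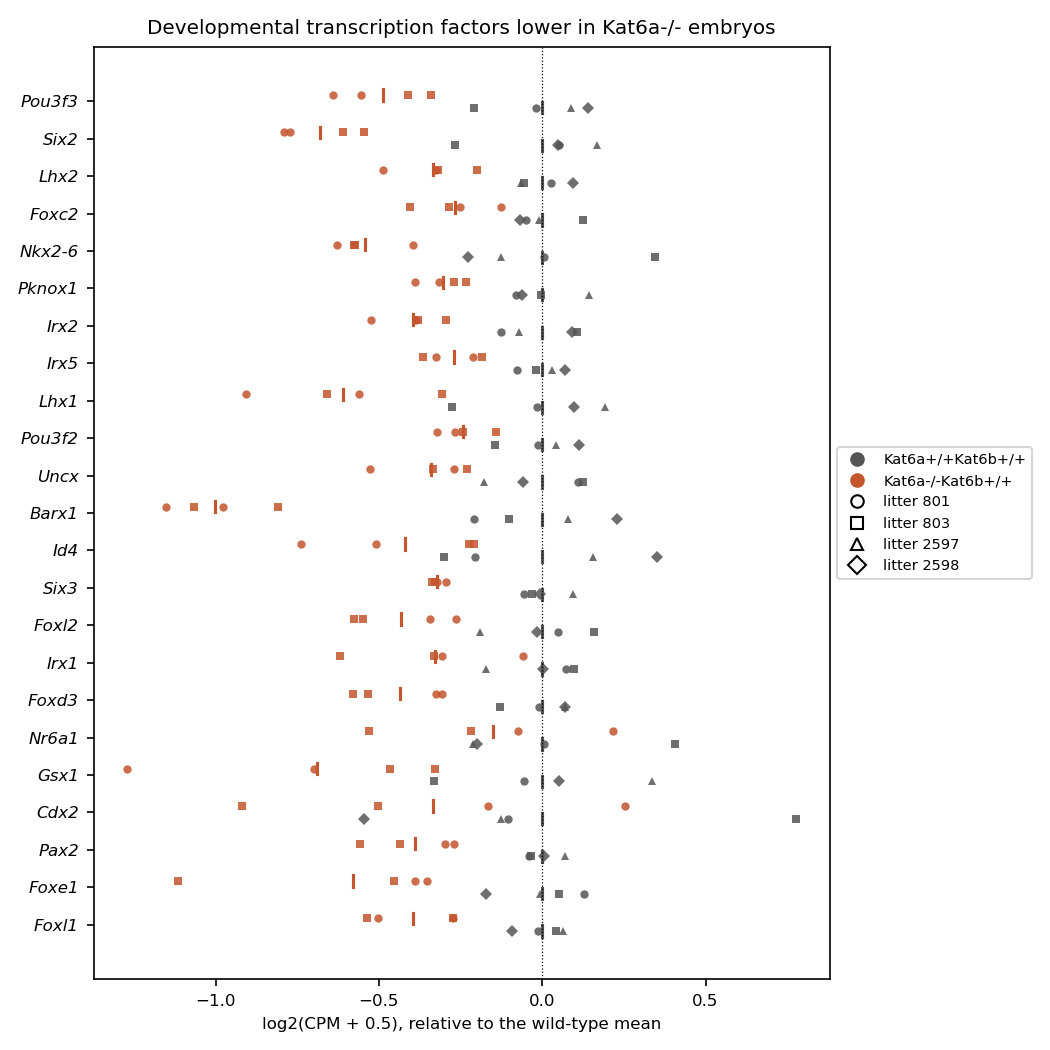
Levels of the 23 downregulated developmental transcription factors in each embryo, as log2(CPM + 0.5) minus the wild-type mean (x axis); each row is a gene, grey points are wild-type and orange points Kat6a-/- embryos, shapes mark the litter, and short lines the group means. For most genes the orange points lie left of all grey points, and Cdx2, Nr6a1, Id4, Irx1, Pou3f2 and Gsx1 overlap.

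Sorted by the tissue that the lists stand for, downregulated genes came from many parts of the embryo. As background to each list, 0.938% of all genes tested were downregulated, and 7644 of 15679 log2 fold changes were negative. In the pharyngeal arch list, 3 of 39 tested members were downregulated (Six2, Barx1, Foxe1), 36 of 39 log2 fold changes were negative and the median was -0.18. In the limb bud list 4 of 27 were downregulated (Lhx2, Irx5, Sall3 and Sall1; 25 negative, median -0.16), in the lateral plate list 2 of 26 (Barx1 and Pdgfra; 25 negative, median -0.19) and in the list of heart field regulators 3 of 33 (Foxc2, Nkx2-6, Irx5; 30 negative, median -0.16). The intermediate mesoderm list had 4 of 20 (Six2, Lhx1, Pax2, Sall1; median -0.12). These counts fell when single embryos were left out. Without the wild-type embryo of litter 803, 1 gene of the arch list and 1 of the heart field list was called. The limb bud list had 1 to 3 calls when 1 embryo was left out and the intermediate mesoderm list 1 or 2, and the lateral plate list had 0 without the second Kat6a-/- embryo of litter 801 and 1 without the wild-type embryo of litter 803 or 2597. Genes can stand in several lists, so these counts are not independent of each other.

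Among neural and sensory lists, 4 of 34 forebrain and midbrain genes (Lhx2, Six3, Gsx1, Pax2), 4 of 30 neural tube progenitor genes (Lhx2, Ntn1, Irx5, Gsx1), 2 of 20 hindbrain genes (Cyp26b1, Cyp26c1), 3 of 16 eye and lens genes (Lhx2, Mab21l1, Six3) and 2 of 27 otic vesicle genes (Oc90, Pax2) were downregulated, and none was upregulated. Over all genes tested 0.938% were downregulated. In the forebrain and midbrain list 1 gene was called when any embryo other than the wild-type embryo of litter 801 was left out, in the otic list 1 whichever embryo was left out, in the eye list 1 without the second Kat6a-/- embryo of litter 801, in the hindbrain list 1 without the wild-type embryo of litter 803 or the second Kat6a-/- embryo of that litter, and in the neural tube list 2 without the first Kat6a-/- embryo of litter 801, the second of litter 803 or the wild-type embryo of litter 2598. With litter as a block each of these lists had 0 or 1. Oc90, a main protein of the otoconia of the inner ear, was at 2.39, 1.49, 3.44 and 3.30 CPM in wild-type vs. 0.830, 1.07, 1.00 and 0.789 CPM in Kat6a-/- embryos (log2 fold change -1.41 ± 0.26 SE, FDR = 0.00482). Mab21l1, needed for lens and eye, was at 8.97, 8.28, 11.97 and 13.2 CPM in wild-type vs. 6.97, 5.13, 8.27 and 7.02 CPM in Kat6a-/- embryos (log2 fold change -0.61 ± 0.12 SE, FDR = 0.0108). For both, the wild-type embryos of litters 801 and 803 were lower than those of the other litters, and still above every Kat6a-/- embryo, by a small margin for Mab21l1.

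Zic2, a zinc finger factor of the dorsal neural tube and neural crest, was at 70.6, 73.3, 65.6 and 66.5 CPM in wild-type vs. 61.3, 58.2, 55.1 and 55.3 CPM in Kat6a-/- embryos (log2 fold change -0.27 ± 0.049 SE, FDR = 0.00545). Sall1, a zinc finger factor of kidney and limb, was at 122, 132, 111 and 105 CPM in wild-type vs. 114, 105, 93.1 and 99.8 CPM in Kat6a-/- embryos (log2 fold change -0.20 ± 0.052 SE, FDR = 0.0474) and overlapped between the groups. Sall3, its relative, overlapped too, with 34.3, 42.6, 34.6 and 31.5 CPM in wild-type vs. 29.04, 28.9, 26.6 and 32.2 CPM in Kat6a-/- embryos (log2 fold change -0.29 ± 0.068 SE, FDR = 0.0294). Kit, the receptor of stem cell factor in neural crest, germ and blood cells, was at 33.2, 35.1, 36.9 and 38.2 CPM in wild-type vs. 31.9, 30.7, 27.4 and 29.8 CPM in Kat6a-/- embryos (log2 fold change -0.26 ± 0.058 SE, FDR = 0.0233). It did not overlap. The neural crest list held 3 of 30 downregulated genes (Zic2, Kit, Foxd3), the somite list 3 of 32 (Aldh1a2, Foxc2, Uncx) and the gut list 3 of 29 (Irx1, Cdx2, Foxe1), against 0.938% of all genes tested. The gut list had 0 or 1 call when any embryo other than the first Kat6a-/- embryo of litter 801 was left out, the neural crest list 1 or 2 whichever embryo was left out, and the somite list 1 without the wild-type embryo of litter 803.

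In the lists of muscle, red blood cells, megakaryocytes and sensory ganglia no gene was called in the fit over 16 embryos. These were 39 heart muscle genes (median log2 fold change 0.04), 24 genes of myotome and skeletal muscle, 39 primitive erythroid genes, 26 megakaryocyte genes and 21 genes of placodes and sensory ganglia, and 19 of these 21 had negative values. Atp2a2, the calcium pump of heart muscle, was at 579 ± 24.1 CPM in wild-type and 569.6 ± 15 CPM in Kat6a-/- embryos (mean ± SD, n = 4 each). Hbb-y, an embryonic beta globin, was at 1421 ± 313 in wild-type vs. 1462 ± 371 CPM. Neither passed the threshold. In 48 early neuron genes, 1 was downregulated (Lhx1) and 1 upregulated (Cntn2, a neuronal cell adhesion molecule), the latter at 32.4, 16.5, 39.5 and 45.9 CPM in wild-type vs. 28.05, 33.3, 60.9 and 48.5 CPM in Kat6a-/- embryos (log2 fold change 0.44 ± 0.072 SE, FDR = 0.00157), where the wild-type embryo of litter 803 was far below the others and the groups overlapped. Without this embryo Cntn2 did not pass the threshold (log2 fold change 0.30, FDR = 0.459, edgeR), and neither did it without surrogate variables. Among the mouse genes of the human 22q11 deletion interval, Tbx genes left out, 1 of 33 was upregulated, the endothelial tight junction gene Cldn5 (24.3, 24.1, 22.5 and 24.99 CPM in wild-type vs. 31.9, 29.8, 28.7 and 27.3 CPM in Kat6a-/- embryos; log2 fold change 0.29 ± 0.076 SE, FDR = 0.0487). This list had 0 calls without surrogate variables or with litter as a block, and 0 or 1 when 1 embryo was left out. Over all genes tested 0.938% were downregulated and 0.944% upregulated. A single call in the early neuron list (2.08%) or the 22q11 list (3.03%) is the fewest that can lie above these shares.

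Retinoic acid is made by ALDH1A enzymes and removed by CYP26 enzymes, and enzymes of both kinds fell. Of 21 pathway genes tested 3 were downregulated (14.3%, against 0.938% of all genes tested) and none upregulated, and the median over the pathway was -0.04. Cyp26b1 was at 41.4, 40.7, 39.4 and 41.9 CPM in wild-type vs. 27.4, 25, 22.5 and 25.9 CPM in Kat6a-/- embryos (log2 fold change -0.69 ± 0.066 SE, FDR = 2.05e-06), so that all Kat6a-/- embryos lay at or under 27.4 CPM and all wild-type embryos at or over 39.4 CPM. Aldh1a2, the main retinoic acid synthesizing enzyme of the trunk mesoderm, was at 78.4, 75.2, 74.03 and 69.8 CPM in wild-type vs. 61.1, 61.02, 59.2 and 65.3 CPM in Kat6a-/- embryos (log2 fold change -0.27 ± 0.043 SE, FDR = 0.0014). It did not overlap. Cyp26c1, a CYP26 enzyme of the hindbrain and head mesenchyme, overlapped with 18.9, 20.3, 15.7 and 13.7 CPM in wild-type vs. 16.04, 11.7, 9.99 and 11.3 CPM in Kat6a-/- embryos (log2 fold change -0.52 ± 0.10 SE, FDR = 0.00961). Crabp1, a retinoic acid binding protein with the highest CPM of the list, was at 324 ± 23.5 in wild-type vs. 334 ± 32.7 CPM and did not pass the threshold.

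In the Wnt pathway 8 of 72 tested genes were downregulated (11.1%, against 0.938% of all genes tested) and 1 was upregulated (median -0.05). The 8 became 5 without either Kat6a-/- embryo of litter 801 or without surrogate variables, 0 with litter as a block over 12 embryos and 2 within the 6 embryos of litters 801 and 803. The secreted antagonists Sfrp1, Sfrp2 and Frzb were among the 8. Sfrp1 was at 265, 252, 252 and 254 CPM in wild-type vs. 225, 213, 210.0 and 223 CPM in Kat6a-/- embryos (log2 fold change -0.23 ± 0.034 SE, FDR = 0.000653) and Sfrp2 at 124, 138, 127 and 130.4 CPM in wild-type vs. 106, 105, 106 and 112 CPM in Kat6a-/- embryos (log2 fold change -0.27 ± 0.040 SE, FDR = 0.000884). Sfrp1 starts 0.552 Mb from the start of Kat6a on chromosome 8. Frzb was at 21.6, 21.2, 23.8 and 24.9 CPM in wild-type vs. 16.98, 18.1, 19.4 and 19.14 CPM in Kat6a-/- embryos (log2 fold change -0.30 ± 0.065 SE, FDR = 0.0178). In these 3 genes no Kat6a-/- embryo reached the wild-type range. Exons of the opposite strand cover 21.04% of the exon bases of Sfrp2, 30.6% of Fzd10 and 48.7% of Notum. Wnt5a, a ligand of outgrowing limbs, face and tail, was at 75.4, 79.8, 88.98 and 85.7 CPM in wild-type vs. 66.2, 68.9, 64.9 and 64.9 CPM in Kat6a-/- embryos (log2 fold change -0.32 ± 0.053 SE, FDR = 0.00216). Of the receptors, Fzd10 was at 93.02, 86.2, 98 and 92.3 CPM in wild-type vs. 80.5, 79.2, 73.9 and 72.96 CPM in Kat6a-/- embryos (log2 fold change -0.27 ± 0.043 SE, FDR = 0.00144) and Fzd4 at 27.9, 28.4, 29.1 and 30.8 CPM in wild-type vs. 22.3, 22.5, 22.7 and 24.8 CPM in Kat6a-/- embryos (log2 fold change -0.32 ± 0.072 SE, FDR = 0.0225). The intracellular inhibitor Nkd2 was at 37.9, 34.4, 34.4 and 35.7 CPM in wild-type vs. 28.3, 28.6, 30.6 and 28.5 CPM in Kat6a-/- embryos (log2 fold change -0.30 ± 0.059 SE, FDR = 0.00979), and the ligand Rspo1, which strengthens Wnt signals, at 18.7, 16.2, 17.1 and 15.2 CPM in wild-type vs. 13.3, 13.97, 13.5 and 13.6 CPM in Kat6a-/- embryos (log2 fold change -0.31 ± 0.076 SE, FDR = 0.0392). Again these 5 genes did not overlap. Notum, a secreted enzyme that inactivates Wnt ligands, was upregulated, with 6.09, 7.95, 6.83 and 6.11 CPM in wild-type vs. 8.69, 11.5, 9.99 and 8.68 CPM in Kat6a-/- embryos (log2 fold change 0.53 ± 0.13 SE, FDR = 0.0398). Ctnnb1, which encodes beta-catenin, was at 1485 ± 8.05 in wild-type vs. 1501 ± 13.4 CPM and did not pass the threshold. The downregulated genes of the pathway thus comprised antagonists, ligands and receptors.

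Igf2, the imprinted growth factor that drives fetal growth, was at 1893, 1929, 1977 and 1946 CPM in wild-type vs. 1632, 1655, 1623 and 1647 CPM in Kat6a-/- embryos (log2 fold change -0.24 ± 0.031 SE, FDR = 0.000158), so that it fell by 15.4%. The 4 Kat6a-/- embryos lay close together and well below the 4 wild-type embryos. Its antisense RNA Igf2os was at 42.01, 42.9, 40.01 and 41.3 CPM in wild-type vs. 29.4, 33.5, 32.3 and 30.2 CPM in Kat6a-/- embryos (log2 fold change -0.41 ± 0.066 SE, FDR = 0.00149). Exon bases of the opposite strand cover 9.75% of Igf2 and 26.2% of Igf2os, and the library kit does not keep the strand, so their reads cannot be told apart where they overlap. The neighbouring imprinted gene H19 was at 2947 ± 72.9 in wild-type vs. 3313 ± 105 CPM and did not pass the threshold. Of 49 imprinted genes tested 1 was downregulated and 1 upregulated (Ddc, DOPA decarboxylase, log2 fold change 0.37 ± 0.087 SE, FDR = 0.0289). That is 2.04% each way, against 0.938% and 0.944% of all genes tested, and rests on 1 gene each way. The upregulated count was 0 without surrogate variables, with sex in their place or with litter as a block. It was also 0 when any of 5 of the 8 embryos was left out, and 1 without any of the others. It was 1 in the 8 embryos with sex and in the 6 littermates with no block.

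Of 26 genes of growth factor and insulin-like signalling, 3 were downregulated (Igf2, Pdgfra, Kit) and 1 upregulated (Pdgfc, a ligand of the PDGF receptors). Pdgfra, the PDGF receptor of mesenchyme, was at 132, 124, 165 and 159.7 CPM in wild-type vs. 119, 112, 126 and 128 CPM in Kat6a-/- embryos (log2 fold change -0.24 ± 0.049 SE, FDR = 0.0112). Both Kat6a-/- embryos of litter 803 lay above their wild-type littermate, so the groups overlapped. Pdgfc was at 46.9, 49.9, 53.2 and 54.7 CPM in wild-type vs. 52.1, 58.8, 68.96 and 63.7 CPM in Kat6a-/- embryos (log2 fold change 0.26 ± 0.056 SE, FDR = 0.0178) and overlapped. In the FGF list 1 of 34 was downregulated, the receptor Fgfr3, at 60.99, 65.5, 70.6 and 75.2 CPM in wild-type vs. 54.5, 52.6, 57.4 and 58.4 CPM in Kat6a-/- embryos (log2 fold change -0.27 ± 0.053 SE, FDR = 0.00848). In the BMP and TGF-beta list 2 of 58 were, Id4 and Nbl1, a secreted BMP antagonist at 10.1, 8.73, 9.15 and 9.20 CPM in wild-type vs. 5.86, 5.81, 5.67 and 6.37 CPM in Kat6a-/- embryos (log2 fold change -0.63 ± 0.10 SE, FDR = 0.00146). The downregulated genes were 11.5% of the growth factor, 2.94% of the FGF and 3.45% of the BMP and TGF-beta list, against 0.938% of all genes tested. The FGF and BMP shares rest on 1 and 2 genes. No gene passed the threshold among 21 Hedgehog and 27 Notch pathway genes. Smo, the Hedgehog signal transducer, was at 311, 324, 299 and 292 CPM in wild-type vs. 309.7, 307, 290.0 and 299.6 CPM in Kat6a-/- embryos, and Dlk1, a Notch ligand relative, at 351 ± 11.98 in wild-type vs. 341 ± 10.1 CPM.

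Several of the downregulated genes with the lowest p-values stand in none of these pathways. Skida1, which encodes a nuclear protein of the SKI and DACH domain group, was at 71.6, 73.3, 73 and 67 CPM in wild-type vs. 45.4, 48.5, 47.2 and 46.8 CPM in Kat6a-/- embryos (log2 fold change -0.60 ± 0.048 SE, FDR = 4.2e-07). Its values were close together within each genotype and far apart between them. Skida1 lies on chromosome 2 of GRCm39 from 18045487 to 18053862. Ntn1, the axon guidance cue netrin-1 of the floor plate, was at 168, 161, 163 and 149.6 CPM in wild-type vs. 133, 127, 136 and 143 CPM in Kat6a-/- embryos (log2 fold change -0.25 ± 0.040 SE, FDR = 0.00131), and Nalf2, a gene for an auxiliary factor of the NALCN channel, at 14.1, 15.2, 11.9 and 13.2 CPM in wild-type vs. 10.01, 8.57, 8.04 and 8.57 CPM in Kat6a-/- embryos (log2 fold change -0.64 ± 0.083 SE, FDR = 0.000158). Nab1, a corepressor of EGR factors, was at 30.7, 29.5, 25.6 and 27.1 CPM in wild-type vs. 22.7, 22.2, 20.8 and 23.4 CPM in Kat6a-/- embryos (log2 fold change -0.34 ± 0.062 SE, FDR = 0.00494). None of these overlapped. Tle5, a Groucho-related corepressor, was at 83.97, 70.1, 85.3 and 93.7 CPM in wild-type vs. 55.9, 62.4, 75.99 and 68.6 CPM in Kat6a-/- embryos (log2 fold change -0.32 ± 0.051 SE, FDR = 0.00123), and 1 Kat6a-/- embryo of litter 803 lay above its wild-type littermate. Mycn, the MYC gene of embryonic progenitors, was at 159, 171, 164 and 172 CPM in wild-type vs. 161, 152, 127 and 123 CPM in Kat6a-/- embryos (log2 fold change -0.26 ± 0.043 SE, FDR = 0.00192), with overlap through 1 Kat6a-/- embryo of litter 801.

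The largest group among upregulated genes was that of macrophages. Of the 77 macrophage genes in the files 46 had enough counts for a test, and 15 of these were upregulated (32.6%, against 0.944% of all genes tested) and none was downregulated. The median log2 fold change of the 46 was 0.69, and 2 of the 46 values were negative. The other 31 genes had too few counts. Members with few counts in wild-type embryos, such as C1qa and Ms4a6c, passed the filter on low counts through other embryos. Such genes could hardly be called lower, so the share, the median and the signs are to be read with this limit. The summed level of the 77 genes was 202, 177, 221 and 202 CPM in wild-type vs. 221, 250, 263 and 266 CPM in Kat6a-/- embryos. The sum rests in part on genes that other cells also express, such as Stab1 of the endothelium (48.7 ± 4.07 in wild-type vs. 54.4 ± 1.41 CPM; log2 fold change 0.16 ± 0.050 SE, FDR = 0.112). The sums did not overlap, but the lowest Kat6a-/- and highest wild-type embryos were nearly equal. No gene of the list was at 0 in all 8 embryos.

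Most of these genes were at low levels, and their values rest on few counts. Laptm5, a lysosomal protein of blood cells, was at 5.27, 4.36, 6.65 and 4.46 CPM in wild-type vs. 8.69, 11.9, 10.8 and 11.2 CPM in Kat6a-/- embryos (log2 fold change 1.05 ± 0.12 SE, FDR = 4.29e-05). Mrc1, the mannose receptor CD206 of resident macrophages, was at 2.79, 1.27, 3.48 and 1.37 CPM in wild-type vs. 3.71, 4.87, 8.51 and 6.76 CPM in Kat6a-/- embryos (log2 fold change 1.38 ± 0.21 SE, FDR = 0.00123). In both, all Kat6a-/- embryos lay above all wild-type embryos. Csf1r, the receptor that macrophages need to survive, was at 1.44, 0.939, 2.14 and 0.824 CPM in wild-type vs. 1.38, 3.49, 4.37 and 3.49 CPM in Kat6a-/- embryos (log2 fold change 1.24 ± 0.25 SE, FDR = 0.0104), and the Kat6a-/- embryo with the lowest value lay inside the wild-type range. F13a1, a transglutaminase of macrophages, was at 0.261, 0.442, 0.804 and 0.343 CPM in wild-type vs. 0.664, 2.06, 2.66 and 2.11 CPM in Kat6a-/- embryos (log2 fold change 2.03 ± 0.35 SE, FDR = 0.00329), also with overlap. In Mrc1, Csf1r and F13a1 the first Kat6a-/- embryo of litter 801 was the lowest of its genotype. The promoters of Laptm5 and C1qb are printed for their few CG dinucleotides, in the same way as those of Six2 and Barx1 (GRCm39; Laptm5 chr4:130640182-130640481, plus strand, 5 CG; C1qb chr4:136613462-136613761, minus strand, 6 CG).
Laptm5: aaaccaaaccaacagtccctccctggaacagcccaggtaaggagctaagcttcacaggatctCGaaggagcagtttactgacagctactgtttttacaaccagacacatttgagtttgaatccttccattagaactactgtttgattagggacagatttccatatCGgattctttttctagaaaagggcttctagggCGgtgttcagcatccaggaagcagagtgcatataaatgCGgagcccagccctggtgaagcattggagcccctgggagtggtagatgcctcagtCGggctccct
C1qb: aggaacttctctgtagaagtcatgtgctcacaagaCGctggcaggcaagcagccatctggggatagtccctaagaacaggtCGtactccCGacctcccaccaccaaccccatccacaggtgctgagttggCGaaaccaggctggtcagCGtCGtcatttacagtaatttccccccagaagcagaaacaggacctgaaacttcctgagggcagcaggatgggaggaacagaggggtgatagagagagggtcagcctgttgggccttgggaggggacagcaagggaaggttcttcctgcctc

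The complement genes C1qa, C1qb and C1qc, which lie side by side on chromosome 4 and are made by macrophages, rose together. C1qb had 6, 2, 19 and 5 counts in wild-type vs. 14, 41, 30 and 73 counts in Kat6a-/- embryos (log2 fold change 2.00 ± 0.41 SE, FDR = 0.0112). C1qc had 4, 2, 13 and 4 counts in wild-type vs. 8, 43, 23 and 51 counts in Kat6a-/- embryos (log2 fold change 2.13 ± 0.47 SE, FDR = 0.0216), and C1qa had 2, 2, 6 and 2 counts in wild-type vs. 7, 29, 8 and 25 counts in Kat6a-/- embryos (log2 fold change 2.30 ± 0.53 SE, FDR = 0.0272). C1qa did not overlap in CPM, and C1qb and C1qc did. At such low counts the fitted fold change depends on the prior count. Ms4a6c, a membrane protein of monocytes, had 0, 0, 9 and 2 counts in wild-type vs. 11, 35, 17 and 29 counts in Kat6a-/- embryos, and 76.6% of its exon bases are overlapped by exons of the opposite strand. Itgal, an integrin of leukocytes, was at 0.740, 0.387, 0.580 and 0.892 CPM in wild-type vs. 0.940, 1.62, 2.13 and 1.47 CPM in Kat6a-/- embryos (log2 fold change 1.30 ± 0.26 SE, FDR = 0.0109). Ptprc, which encodes the pan-leukocyte antigen CD45, was at 0.522, 0.276, 0.759 and 0.686 CPM in wild-type vs. 0.609, 1.15, 1.42 and 1.32 CPM in Kat6a-/- embryos (log2 fold change 1.12 ± 0.28 SE, FDR = 0.0405) and overlapped. Itgal did not overlap. Of the Fc receptors, Fcgr3 was at 0.348, 0.387, 0.268 and 0.206 CPM in wild-type vs. 0.553, 0.782, 1.42 and 1.16 CPM in Kat6a-/- embryos (log2 fold change 1.66 ± 0.36 SE, FDR = 0.0198) and Fcgr1 at 0.0871, 0.0552, 0.134 and 0.343 CPM in wild-type vs. 0.498, 0.547, 0.414 and 0.676 CPM in Kat6a-/- embryos (log2 fold change 2.11 ± 0.50 SE, FDR = 0.0291), with no overlap. The signalling and cytoskeleton genes of blood cells Vav1, Nckap1l and Arhgap30 completed the 15. Vav1 was at 0.218, 0.166, 0.536 and 0.549 CPM in wild-type vs. 0.774, 0.860, 0.827 and 0.930 CPM in Kat6a-/- embryos (log2 fold change 1.45 ± 0.32 SE, FDR = 0.0202), Nckap1l at 1.26, 0.773, 1.07 and 0.549 CPM in wild-type vs. 1.38, 1.67, 2.19 and 2.37 CPM in Kat6a-/- embryos (log2 fold change 1.02 ± 0.23 SE, FDR = 0.0219) and Arhgap30 at 0.348, 0.166, 0.536 and 0.412 CPM in wild-type vs. 0.443, 1.04, 1.06 and 1.69 CPM in Kat6a-/- embryos (log2 fold change 1.58 ± 0.39 SE, FDR = 0.0405), of which Arhgap30 overlapped. Exons of the opposite strand cover 19.8% of the exon bases of Csf1r.

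The number of macrophage genes called rests on the fit and on single embryos. It was 4 without surrogate variables, 5 with sex in their place, 3 where only genes with at least 10 counts in every embryo were tested, 4 without the wild-type embryo of litter 803, 9 and 8 without those of litters 2597 and 2598, and 6 without either of 2 Kat6a-/- embryos, the second of litter 801 and the second of litter 803. With litter as a block it was 0 over 12 embryos with surrogate variables or with sex, 2 with neither and 3 over the 6 embryos of litters 801 and 803. It was 2 in these 6 embryos with no block and 2 in the 8 embryos with sex. No gene of the list was called lower in any of the alternative fits, which was hardly possible for members with few wild-type counts.

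**Figure D3:**
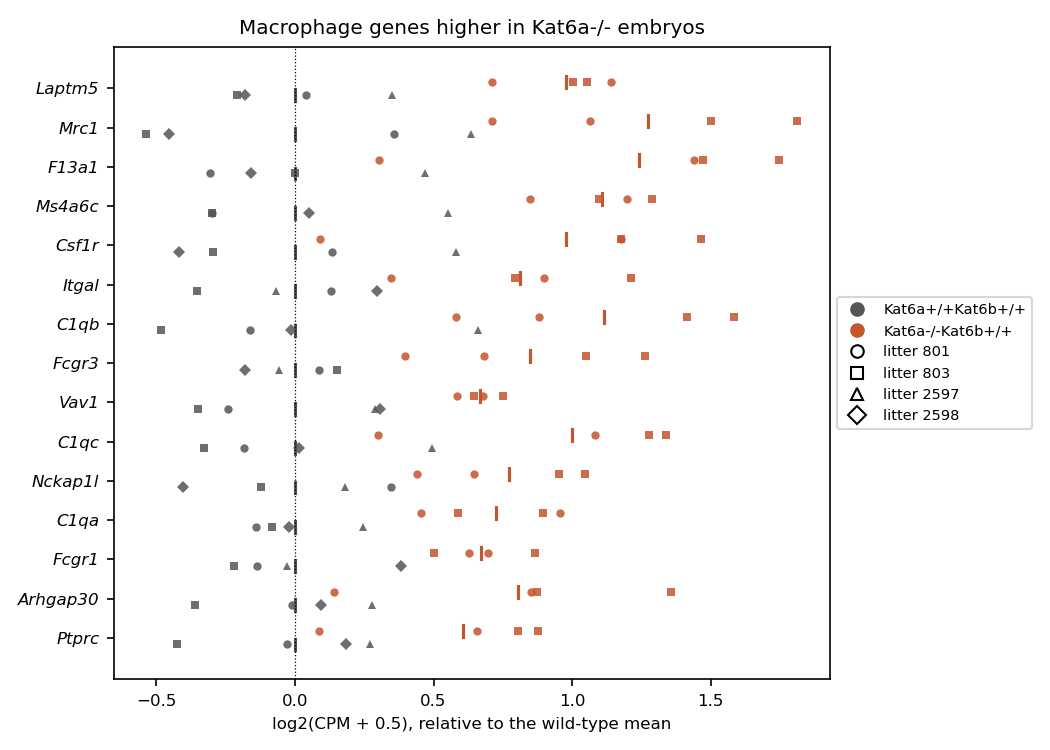
Levels of the 15 upregulated macrophage genes in each embryo, as log2(CPM + 0.5) minus the wild-type mean (x axis); each row is a gene, grey points are wild-type and orange points Kat6a-/- embryos, shapes mark the litter, and short lines the group means. The orange means lie right of the grey means for all 15 genes, and the wild-type embryo of litter 803 is often among the lowest.

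Further upregulated genes of blood cells were outside the list. Ptpn6, the phosphatase SHP-1 of blood cells, was at 3.74, 4.86, 3.62 and 4.46 CPM in wild-type vs. 7.86, 6.78, 6.44 and 6.65 CPM in Kat6a-/- embryos (log2 fold change 0.73 ± 0.11 SE, FDR = 0.00123), Cyth4, a cytohesin of leukocytes, at 1.26, 1.27, 1.34 and 1.10 CPM in wild-type vs. 2.32, 3.05, 2.60 and 3.30 CPM in Kat6a-/- embryos (log2 fold change 1.20 ± 0.19 SE, FDR = 0.00144), and Lsp1, an actin-binding protein of leukocytes, at 18.6, 15.2, 21.3 and 21.01 CPM in wild-type vs. 22.9, 25.7, 24.4 and 26.3 CPM in Kat6a-/- embryos (log2 fold change 0.40 ± 0.091 SE, FDR = 0.025). In these 3 genes the Kat6a-/- embryos lay above all wild-type embryos. Of the mast cell, granulocyte and lymphoid list, 23 genes were in the files, 6 of them were at 0 in all 8 embryos and only 2 had enough counts for a test, with no call. Its summed level ranged from 9.82 to 12.4 CPM in wild-type and from 9.55 to 12.3 CPM in Kat6a-/- embryos. Of 33 blood stem and progenitor genes tested, 2 were downregulated (Mycn, Kit) and 2 upregulated (Bmi1, Ptprc), 6.06% each, against 0.938% and 0.944% of all genes tested. Without surrogate variables or with sex in their place, 0 were downregulated and 1 upregulated. With litter as a block 0 were downregulated and 0 or 1 upregulated. When 1 embryo was left out, 1 to 3 were downregulated and 1 or 2 upregulated.

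Tissues that a dissected embryo could carry along overlapped in their summed levels. The trophoblast and decidua list summed to 1099.5 to 1260.5 CPM in wild-type and 1105 to 1245 CPM in Kat6a-/- embryos, which rests mostly on Peg10, with 6 of its 29 genes at 0 in all 8 embryos and 1 of 13 tested genes upregulated (Krt7, a keratin, log2 fold change 0.29 ± 0.075 SE, FDR = 0.0474). The liver bud and yolk sac endoderm list summed to 208 to 266 CPM and 208 to 231 CPM. None of its 29 tested genes passed the threshold, and their median log2 fold change was -0.34.

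Genes of interferon response, complement and antigen presentation went both ways. Ifitm2 and Ifitm3, interferon-induced membrane proteins with similar sequences, were at 89.6, 89.9, 87.8 and 87.4 CPM in wild-type vs. 118, 110.3, 97.6 and 102 CPM in Kat6a-/- embryos (log2 fold change 0.26 ± 0.051 SE, FDR = 0.00854) and at 6.96, 7.57, 6.65 and 6.32 CPM in wild-type vs. 10.95, 9.54, 8.33 and 10.3 CPM in Kat6a-/- embryos (log2 fold change 0.50 ± 0.11 SE, FDR = 0.0244). H2-K1, a class I antigen presenting molecule, was at 22.03, 20.2, 19.4 and 20.05 CPM in wild-type vs. 33.9, 28.96, 19.2 and 28.2 CPM in Kat6a-/- embryos (log2 fold change 0.41 ± 0.093 SE, FDR = 0.0275), where the lowest Kat6a-/- embryo lay under the wild-type range. H2-Ab1, a class II molecule, was downregulated, with 3.83, 3.20, 2.81 and 3.64 CPM in wild-type vs. 1.77, 1.33, 2.42 and 1.07 CPM in Kat6a-/- embryos (log2 fold change -1.09 ± 0.21 SE, FDR = 0.00685). These 3 upregulated and 1 downregulated genes were the calls among 28 tested (10.7% and 3.57%, against 0.944% and 0.938% of all genes tested). Of the 3, only 1 was called when any embryo other than the wild-type embryo of litter 801 and the first Kat6a-/- embryo of litter 803 was left out. Exons of the opposite strand cover 29.3% of the exon bases of Ifitm2, 60.9% of Ifitm3 and 26.8% of H2-K1, and the Ifitm and H2 genes have near-identical relatives with which reads can be shared, so these values are uncertain.

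Bmi1, a core member of Polycomb repressive complex 1 and a regulator of stem cell self-renewal, was the only upregulated gene among 34 Polycomb genes tested, and none was downregulated. Bmi1 was at 93.9, 104, 107 and 101 CPM in wild-type vs. 116, 119, 117 and 122 CPM in Kat6a-/- embryos (log2 fold change 0.23 ± 0.040 SE, FDR = 0.00381). Its values did not overlap between the groups. Bmi1 lies on chromosome 2 from 18681292 to 18691441, the chromosome that also holds Skida1. No gene passed the threshold among 16 genes of the KAT6 complex and MYST acetyltransferases, 22 other histone acetyltransferases and deacetylases and 21 Trithorax group genes, with medians between -0.02 and 0.04.

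Cell surface adhesion genes were upregulated in 6 of 48 tested cases and downregulated in none (12.5%, against 0.944% of all genes tested; median 0.03). The count was 0 without the wild-type embryo of litter 803, 1 to 4 when another embryo was left out, and 0 without surrogate variables, with sex in their place or with litter as a block. Besides Cntn2 and Itgal, which was counted in the macrophage list too, these were Itga6, a laminin receptor subunit at 127, 137, 128 and 133 CPM in wild-type vs. 153, 143, 145 and 152 CPM in Kat6a-/- embryos (log2 fold change 0.17 ± 0.039 SE, FDR = 0.0279), Itga3, a further laminin receptor subunit at 75.2, 79.9, 69.03 and 67.3 CPM in wild-type vs. 85.4, 86.2, 78.1 and 81.6 CPM in Kat6a-/- embryos (log2 fold change 0.18 ± 0.042 SE, FDR = 0.0321), Chl1, a neural adhesion molecule (log2 fold change 0.57 ± 0.14 SE, FDR = 0.0399), and Nectin4, an adherens junction protein of epithelia (log2 fold change 1.03 ± 0.27 SE, FDR = 0.0487). Of 38 cadherin and protocadherin genes 1 fell and 1 rose, Cdh11 of mesenchyme at 203, 182, 214 and 206 CPM in wild-type vs. 177, 171, 178 and 179 CPM in Kat6a-/- embryos (log2 fold change -0.18 ± 0.037 SE, FDR = 0.0107) and the protocadherin Fat2 at 1.48, 1.05, 1.65 and 1.85 CPM in wild-type vs. 2.27, 2.398, 3.78 and 2.59 CPM in Kat6a-/- embryos (log2 fold change 0.88 ± 0.20 SE, FDR = 0.0272). In axon guidance the cues Ntn1 and Efna2 fell and the semaphorins Sema3g (log2 fold change 0.35 ± 0.089 SE, FDR = 0.0432) and Sema3b (log2 fold change 0.39 ± 0.099 SE, FDR = 0.0477) rose, of 74 tested, and the semaphorins were not called without surrogate variables. Efna2 was at 72.04, 76.1, 82.9 and 77.6 CPM in wild-type vs. 65.7, 64.7, 68.9 and 68.3 CPM in Kat6a-/- embryos (log2 fold change -0.20 ± 0.046 SE, FDR = 0.025). In the matrix lists, 2 of 37 collagen genes and 2 of 74 other genes were downregulated (5.41% and 2.70%, against 0.938% of all genes tested), with 0 or 1 collagen gene left when any 1 embryo was left out. Col15a1, a basement membrane collagen, was at 35.7, 27.6, 35.99 and 35.7 CPM in wild-type vs. 26.4, 26.5, 29.4 and 28.3 CPM in Kat6a-/- embryos (log2 fold change -0.27 ± 0.062 SE, FDR = 0.024), and Col23a1, a transmembrane collagen, at 64.4, 63.5, 68.5 and 66.7 CPM in wild-type vs. 57.8, 56.1, 55.2 and 59.04 CPM in Kat6a-/- embryos (log2 fold change -0.20 ± 0.051 SE, FDR = 0.0498). Fbln5, an elastic fibre protein, was at 4.48, 4.14, 4.64 and 4.39 CPM in wild-type vs. 2.05, 2.76, 3.25 and 2.45 CPM in Kat6a-/- embryos (log2 fold change -0.73 ± 0.14 SE, FDR = 0.00882), and Mmp15 encodes a membrane-bound metalloprotease (log2 fold change -0.17 ± 0.041 SE, FDR = 0.0317).

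Of the remaining upregulated genes with the lowest p-values, Arap1, a regulator of small GTPases, was at 24.3, 23.5, 25.1 and 23.8 CPM in wild-type vs. 34.8, 32.8, 30.9 and 29.7 CPM in Kat6a-/- embryos (log2 fold change 0.39 ± 0.057 SE, FDR = 0.000597), and Bcam, a laminin-binding adhesion molecule, at 101, 113, 94.9 and 98.5 CPM in wild-type vs. 129, 127, 116 and 119 CPM in Kat6a-/- embryos (log2 fold change 0.26 ± 0.037 SE, FDR = 0.000572). Minar2 was at 15.4, 15.2, 16.7 and 16.96 CPM in wild-type vs. 21.9, 21.5, 20.4 and 21.3 CPM in Kat6a-/- embryos (log2 fold change 0.40 ± 0.066 SE, FDR = 0.00168) and Stum, a gene related to mechanosensory neurons in flies, at 17.6, 16.7, 15.8 and 16.2 CPM in wild-type vs. 23.5, 20.4, 22.1 and 24.7 CPM in Kat6a-/- embryos (log2 fold change 0.45 ± 0.073 SE, FDR = 0.00157). These 4 did not overlap. Cyp4f16, a cytochrome P450 without overlap, was at 8.97, 8.17, 9.73 and 9.27 CPM in wild-type vs. 13.2, 13.5, 13.7 and 11.9 CPM in Kat6a-/- embryos (log2 fold change 0.52 ± 0.094 SE, FDR = 0.00415), and the zinc finger gene Zfp213 was at 12.9, 13.5, 12.2 and 10.6 CPM in wild-type vs. 19.6, 19.7, 13.2 and 18.5 CPM in Kat6a-/- embryos (log2 fold change 0.51 ± 0.091 SE, FDR = 0.00434) and overlapped. As3mt, an arsenite methyltransferase, was at 19.5, 19.8, 24.3 and 20.7 CPM in wild-type vs. 24.8, 26.7, 26.3 and 26.9 CPM in Kat6a-/- embryos (log2 fold change 0.32 ± 0.065 SE, FDR = 0.0107). Among germ cell and meiosis genes (31 tested), Sycp1, a part of the synaptonemal complex, fell, with 5.53, 4.14, 3.75 and 4.12 CPM in wild-type vs. 0.774, 2.37, 1.18 and 0.733 CPM in Kat6a-/- embryos (log2 fold change -1.76 ± 0.35 SE, FDR = 0.0214). Cyct, the testis cytochrome c, was upregulated and had 0, 0, 1 and 0 counts in wild-type vs. 2, 35, 20 and 21 counts in Kat6a-/- embryos; no fold is given, since no wild-type embryo had more than 1 count.

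A number of the most strongly changed genes lie beside Kat6a on chromosome 8. Kat6a starts at position 23349545 of GRCm39. Of the 57 other tested genes with a start within 5 Mb of it, 4 were downregulated and 2 upregulated, which is 10.5%, against 1.88% of all genes tested, and 2.05% of the 779 tested genes of the chromosome. Nek3, a mitotic kinase relative 0.693 Mb from the start of Kat6a, was at 15.3, 15.6, 15.2 and 13.5 CPM in wild-type vs. 5.75, 7.14, 5.79 and 6.12 CPM in Kat6a-/- embryos (log2 fold change -1.26 ± 0.11 SE, FDR = 5.79e-07), which is 0.419 times the wild-type level. Smim19, 0.382 Mb away, was at 15.8, 15.5, 15.9 and 18.9 CPM in wild-type vs. 9.24, 11.3, 9.45 and 10.9 CPM in Kat6a-/- embryos (log2 fold change -0.66 ± 0.087 SE, FDR = 0.000172). Hgsnat, which encodes a lysosomal acetyltransferase 3.12 Mb away on the other side, was at 19.9, 23.3, 21.5 and 19.2 CPM in wild-type vs. 35.5, 37.7, 39.2 and 35 CPM in Kat6a-/- embryos (log2 fold change 0.81 ± 0.071 SE, FDR = 7.2e-07). In these 3 genes the groups did not overlap and stood wide apart.

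Sfrp1, Adam9 and Mcph1 were the other changed genes within 5 Mb, and Kbtbd11 lay 8.29 Mb away. Adam9, a membrane protease 2.16 Mb from the start of Kat6a, was at 50.5, 53.2, 51.3 and 51.1 CPM in wild-type vs. 60.1, 59.9, 67.3 and 60.6 CPM in Kat6a-/- embryos (log2 fold change 0.27 ± 0.046 SE, FDR = 0.0032), and Kbtbd11 was at 58.8, 56.7, 49.5 and 55.1 CPM in wild-type vs. 68.8, 66.6, 65 and 70.5 CPM in Kat6a-/- embryos (log2 fold change 0.30 ± 0.055 SE, FDR = 0.00434). The transcribed pseudogenes 6820431F20Rik and 2610005L07Rik matched no single gene of the annotation, so that no position is given for them. They were at 61.3, 68.9, 60.4 and 64.3 CPM in wild-type vs. 34.9, 37.7, 46.98 and 41.3 CPM in Kat6a-/- embryos (log2 fold change -0.66 ± 0.087 SE, FDR = 0.00106) and at 36.9, 44.7, 38.2 and 43.1 CPM in wild-type vs. 20.6, 22.3, 31.4 and 23.8 CPM in Kat6a-/- embryos (log2 fold change -0.74 ± 0.10 SE, FDR = 0.00123). A Kat6a-/- embryo carries the chromosome of the targeted allele on both copies around the gene, so that the deletion and linked differences of the strain of origin cannot be told apart for the genes beside Kat6a, Sfrp1 included.

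Lower and higher genes differed in the CG content of their promoters, taken as the same 300-base window that is printed above for Six2, Barx1, Laptm5 and C1qb (canonical transcripts of GENCODE release M39). The window could be read for 15339 of the 15679 genes tested, 142 of the 147 downregulated and 148 of the 148 upregulated genes. It held a median of 16 CG dinucleotides over all genes tested, 18.5 over downregulated and 8 over upregulated genes. Fewer than 10 were found in 27.6% of all genes tested, 24.6% of downregulated and 55.4% of upregulated genes. More than 20 were found in 36.0% of all genes tested, 45.8% of downregulated and 21.6% of upregulated genes, so both kinds of promoter occurred in both groups. Among the 23 downregulated developmental factors the median was 23, against 18 for all 298 tested genes of their lists, and over the macrophage list it was 5, whether or not its genes changed. Upregulated genes outside the macrophage list had a median of 9. These are descriptions of the sequence, with no test, and all 4 printed promoters were chosen after their CG content was seen.

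**Figure D4:**
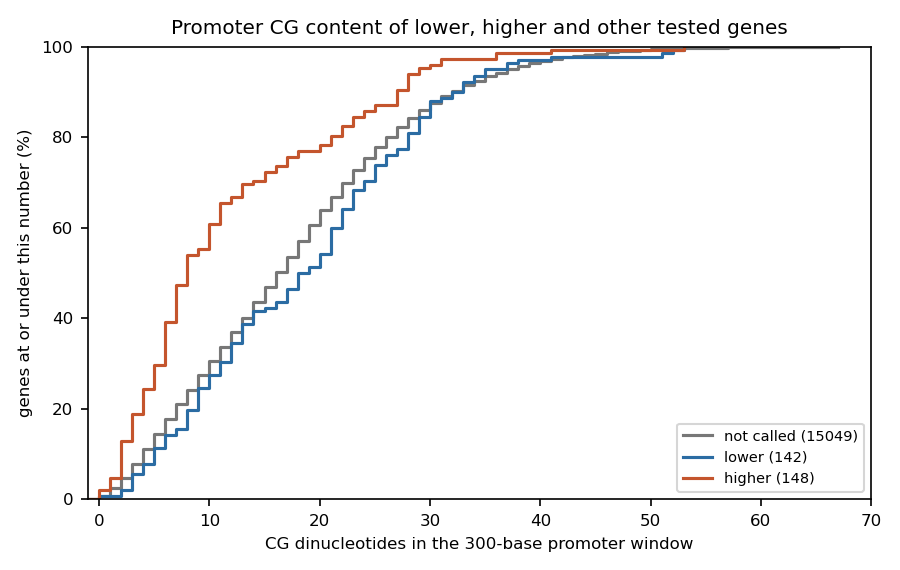
Cumulative share of genes (y axis, %) by the number of CG dinucleotides in the 300-base promoter window (x axis), for downregulated, upregulated and other tested genes, with the number of genes in parentheses. The curve of upregulated genes rises earlier, with 55.4% of them under 10 CG, against 24.6% of downregulated genes.

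Litters 801 and 803 each held 1 wild-type and 2 Kat6a-/- embryos, which allows a comparison of littermates. In log2 ratios of CPM (pseudocount 0.5 CPM), 139 of the 147 downregulated and 142 of the 148 upregulated genes changed in the same direction as in the fit within both litters (94.6% and 95.9%), where 46.8% of all genes tested did. These ratios share their embryos with the fit. The median ratio of downregulated genes was -0.31 in each litter, and that of upregulated genes was 0.37 in litter 801 and 0.32 in litter 803. Set against the wild-type embryos of litters 2597 and 2598 only, the median of downregulated genes was -0.37, and against the wild-type littermates it was -0.32. Wild-type embryos of litters 801 and 803 lay wholly to 1 side of those of litters 2597 and 2598 for 60.5% of downregulated and 52.7% of upregulated genes, against 39.1% of all genes tested.

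**Figure D5:**
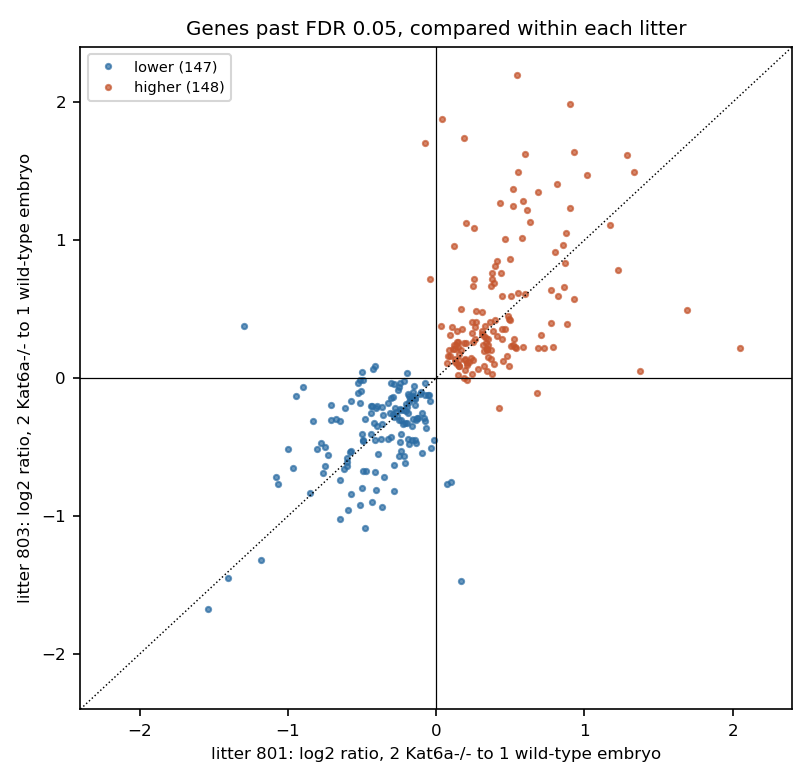
Log2 ratio of the mean CPM of the 2 Kat6a-/- embryos to the wild-type embryo within litter 801 (x axis) and within litter 803 (y axis), pseudocount 0.5 CPM, for the 147 downregulated (blue) and 148 upregulated (orange) genes. Of the points, 139 blue ones lie in the lower left and 142 orange ones in the upper right.

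A test within these litters called far fewer genes. With only the 6 embryos of litters 801 and 803 and litter as a block, 28 genes were downregulated and 18 upregulated (0.182% and 0.117% of 15400 tested), and 33 of these 46 were also called by the fit over 16 embryos, in the same direction. The 6 embryos are part of the 16, so the fits share their data. Outside Hox, Dlx and Tbx the shared downregulated genes were Skida1, Nek3, Cyp26b1, Barx1, Six2, Igf2, Igf2os, Ntn1, Nalf2, Sfrp1, Sfrp2, Aldh1a2, Zic2, Nab1, 6820431F20Rik and 2610005L07Rik, and the shared upregulated genes Hgsnat, Laptm5, Ms4a6c, Lsp1, Minar2, Bmi1, Arap1, C1qb, As3mt and Cyp4f16. The other called genes named above were not called in this fit. A set of 13 genes was called here and not over 16 embryos. Lower were Scoc, Serpinf2, Gata4, Gata6 and Postn, and higher were Itpa, A730017L22Rik, B2m, Rem2, Hbb-bs, Dph6, Hspa12b and Lrp8os2. Unless another fit is named, the counts of called list members above come from the fit over 16 embryos and leave these genes out.

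A further pair of fits used the 12 embryos of litters 801, 803, 2597 and 2598, those with the transgene included, and took litter into the model. With surrogate variables 14 genes were downregulated and 6 upregulated (0.0901% and 0.0386% of 15533 tested), and with sex in their place 5 and 3 (0.0322% and 0.0193%), of which 12 and 6 were shared with the fit over 16 embryos. Under both, Skida1, Nek3 and Hgsnat were called. With surrogate variables these were joined by Pou3f3 and Six2, the pseudogenes 6820431F20Rik and 2610005L07Rik and the zinc finger gene Zfp945 (39.4, 36.3, 37.2 and 33.2 CPM in wild-type vs. 28.05, 29.6, 33.4 and 29.6 CPM in Kat6a-/- embryos; log2 fold change -0.28 ± 0.062 SE, FDR = 0.0219), and with sex by Cyp26b1. No macrophage gene was called in either of these fits.

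Lists of cell state and metabolism held few calls. No gene passed the threshold among 44 genes of S phase, 45 of mitosis, 38 p53 targets and apoptosis genes, 44 of glycolysis and hypoxia, 39 of cholesterol and lipid synthesis, 37 of the unfolded protein response and 35 of heat shock and immediate early response. Of 20 D-type cyclin and CDK inhibitor genes, E2f3 was downregulated (112, 113, 123 and 115 CPM in wild-type vs. 101, 99.7, 106 and 106 CPM in Kat6a-/- embryos; log2 fold change -0.17 ± 0.041 SE, FDR = 0.0351). In some lists without calls most values had 1 sign, where 8035 of all 15679 genes tested were positive. In oxidative phosphorylation, 65 of 69 tested genes had positive values, with a median of 0.11 and no overlap between the groups for 19 of the 69 (7.97% of all genes tested did not overlap), and in cholesterol synthesis 36 of 39 were positive with a median of 0.17 and no such gene.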

How the data were processed

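The authors sequenced RNA from whole embryos at E9.5 with a poly(A) kit that keeps no strand, and the reads were aligned to mm39. The deposited values are raw counts per gene from featureCounts, per the labels, not normalised. Genes with low counts were removed with filterByExpr of edgeR (version 4.0.16; R 4.3.3), which left 15679 of 26411. Library sizes were TMM-normalised, 2 surrogate variables were estimated with sva 3.50.0, genotype kept, and all 16 embryos were fitted with the robust quasi-likelihood test. FDR values follow Benjamini and Hochberg. On simulated counts the fit was tested first. DESeq2 1.42.0 and limma 3.58.1 were alternatives.

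Genes were named by a rule: Kat6a and Kat6b, the 15 lower and 15 higher genes with the lowest p outside Hox, Dlx and Tbx, up to 6 called members of each of 69 lists with the member of highest CPM, and genes also called with litter as a block. Fzd4, Rspo1, Notum, C1qa, C1qc, Fcgr1, Fcgr3, Vav1, Nckap1l, Arhgap30, Mcph1 and Gm26917 were added after their values were seen. Comparison, lists and rule were chosen with earlier results of these data known. Gene positions come from GENCODE M39 (GRCm39), where 25282 symbols matched 1 gene. Exons of the opposite strand also cover more than 10% of Zic2, Mab21l1, Cyp26c1, Fgfr3, Mycn, E2f3, Smim19, Kbtbd11, Zfp213, Mcph1, Atp2a2 and Ctnnb1.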

Additional observations from a re-analysis of the deposited data

Results flagged for a closer look

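In groups of 4 embryos, a value was looked at again where its gap to the nearest other value, divided by the range of the group, was above the 95% critical value of Dixon's test. This was so in 12 of 264 groups (4.55%), and chance gives about 1 in 20. The summed CPM of the early neuron list was 1357 in the wild-type embryo of litter 803 and 1781 to 1782 in the other wild-type embryos. Col15a1 was at 27.6 CPM in the same embryo, against 35.7 to 36.0 CPM in the others. The wild-type embryo of litter 801 stood apart with 265 CPM of Sfrp1 (others 252 to 254) and 296 CPM of Foxp4 (others 309.9 to 310.4), and that of litter 2598 with 18.9 CPM of Smim19 (others 15.5 to 15.9). For Cyct, the value of 0.045 CPM in the wild-type embryo of litter 2597 is 1 count, against 0 in the others.

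Among Kat6a-/- embryos, the first of litter 803 stood apart with 67.3 CPM of Adam9 (others 59.9 to 60.6), 2.01 CPM of Foxe1 (others 3.47 to 3.76), 30.6 CPM of Nkd2 (others 28.3 to 28.6) and 141 CPM of Prrx1 (others 113 to 118). The second of litter 803 stood apart with 24.8 CPM of Fzd4 (others 22.3 to 22.7) and 112 CPM of Sfrp2 (others 105 to 106). In Foxe1 the first embryo of litter 803 lay farthest from the wild type, and without it the gene was not called (log2 fold change -0.50, FDR = 0.129, edgeR), as when any other embryo was left out (FDR = 0.0793 to 0.147).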

How the results depend on the processing

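Of 2887 values of the 112 called genes named here under 26 alternatives, 1681 stayed on the same side of the threshold with the same direction, 1205 kept their direction and lost the threshold, and 1 reversed: Id4 with litter as a block and sex as covariate over 12 embryos (log2 fold change 0.0079). Counts are given as all calls, lower, higher, lower developmental factors and higher macrophage genes, which were 295, 147, 148, 23 and 15. They were 95, 57, 38, 7 and 4 without surrogate variables, 100, 62, 38, 8 and 5 with the first surrogate variable only, and 91, 56, 35, 7 and 5 with sex as covariate. Litter as a block over 12 embryos gave 20, 14, 6, 3 and 0 with surrogate variables, 8, 5, 3, 0 and 0 with sex, and 18, 12, 6, 0 and 2 with neither (chosen after the data were seen). The 6 embryos of litters 801 and 803 gave 46, 28, 18, 4 and 3 with the block and 43, 28, 15, 3 and 2 without it. The 4 factors with the block were Barx1, Six2, Gata4 and Gata6, and Gata4 and Gata6 were not among the 23. The 3 factors over 12 embryos with surrogate variables were Pou3f3, Six2 and Pax1, and Pax1 was not among the 23. The 8 embryos alone gave 71, 47, 24, 6 and 2 with sex. An FDR under 0.01 gave 86, 57, 29, 4 and 3. Offsets for gene length gave 467, 228 and 239 calls, and a minimum of 10 counts in every embryo 3 macrophage genes. Leaving out 1 embryo gave 137 to 357, 80 to 197, 55 to 160, 8 to 21 and 4 to 15. DESeq2 (416), limma-voom (257), DESeq2 size factors (287), no filter (313) and surrogate variables from the 8 embryos (306) stayed within 1.5 times. The causes were not tested. The replicate block gave 260 calls; same-numbered embryos share only a number, with correlations of their deviations from -0.13 to -0.0058. In low genes such as those of macrophages, depth limits what can be called.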

Other observations

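Replication-dependent histone genes, a class looked at after its values were seen, lay higher in most Kat6a-/- embryos. Their summed level was 59.1, 65.7, 53.2 and 55.5 CPM in wild-type vs. 97.8, 92.8, 62.3 and 73.3 CPM in Kat6a-/- embryos, so that the Kat6a-/- embryos of litter 801 stood highest and 1 of litter 803 lay within the wild-type range. Of 55 such genes tested, 51 had positive log2 fold changes, with a median of 0.69, and 3 passed the threshold, the linker histone genes H1f3, H1f4 and H1f5. These transcripts lack a poly(A) tail, and the embryos of litter 801 with the highest values are those with 1.16% and 1.09% of their counts on Gm26917. The part of RNA selection in this was not tested.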
